A study of Mus musculus with 6 samples.

Results

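The genes described here are 10 genes of neurogenesis in the embryonic forebrain, the proneural factors and the markers of intermediate progenitors: Neurog1, Neurog2, Eomes, Insm1, Btg2, Rhbdl3, Neurod4, Neurod1, Neurod2 and Neurod6. They were chosen by name and matched by symbol to the Ensembl identifiers of the count table, and all 10 of them were found among its 33084 genes. All 10 also passed the filter on low counts, which left 19403 genes for testing. The study sequenced forebrain RNA of mouse embryos at 15.5 days post coitum, in 3 Dyrk1a heterozygous mutant (Dyrk1a+/-) samples and 3 wild-type (wt) samples of the same mouse line, each labelled a biological replicate. Dyrk1a encodes a dual-specificity kinase that regulates the cell cycle and the differentiation of neural progenitors. The labels name no Cre driver and do not say which part of Dyrk1a was removed, from which litters the embryos came or what sex they were. The tissue was the whole microdissected forebrain, so dorsal and ventral telencephalon and any attached diencephalon were read together.

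In the developing cortex, radial glia dividing at the ventricle produce neurons either directly or through intermediate progenitors, which divide away from the ventricle. The proneural basic helix-loop-helix factors Neurog1 and Neurog2 start this programme by pairing with E proteins and binding E-box motifs, and HES repressors downstream of Notch hold them back. Eomes (also called Tbr2) and Insm1 mark the intermediate progenitor, and the NEUROD factors follow in succession as cells leave the cycle and become glutamatergic neurons.

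The promoters of 8 of the 10 genes were found in RefSeq's table on GRCm38.p6, with 9 promoters in all because Neurod4 has a pair of start sites. Those of Neurog2, Eomes and Btg2 are shown because these genes were higher in heterozygotes, and that of Neurod2 because it is the only one of the 9 that holds the proneural E-box. Each is given as the 250 bases upstream of the RefSeq start, 5′ to 3′ on the gene's strand, with matches on either strand to CAGATG (the E-box that NEUROG and NEUROD factors prefer), to CCAAT and to TATATAA in capitals.
Neurog2 (chr3:127632886-127633135, plus strand): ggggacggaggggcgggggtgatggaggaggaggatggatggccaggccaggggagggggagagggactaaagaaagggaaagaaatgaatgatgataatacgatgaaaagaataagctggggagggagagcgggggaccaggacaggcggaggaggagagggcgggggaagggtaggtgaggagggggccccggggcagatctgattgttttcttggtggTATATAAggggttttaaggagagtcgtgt
Eomes (chr9:118477939-118478188, plus strand): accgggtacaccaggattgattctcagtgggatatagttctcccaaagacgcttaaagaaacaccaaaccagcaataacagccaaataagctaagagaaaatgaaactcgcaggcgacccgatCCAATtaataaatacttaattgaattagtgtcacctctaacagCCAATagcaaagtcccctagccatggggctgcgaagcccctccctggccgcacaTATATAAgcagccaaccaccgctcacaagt
Btg2 (chr1:134079156-134079405, minus strand): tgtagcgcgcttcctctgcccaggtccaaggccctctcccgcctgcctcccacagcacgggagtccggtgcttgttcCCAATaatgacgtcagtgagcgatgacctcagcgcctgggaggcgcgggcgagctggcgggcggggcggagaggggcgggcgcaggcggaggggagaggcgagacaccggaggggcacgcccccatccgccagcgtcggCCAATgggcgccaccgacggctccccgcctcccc
Neurod2 (chr11:98329646-98329895, minus strand): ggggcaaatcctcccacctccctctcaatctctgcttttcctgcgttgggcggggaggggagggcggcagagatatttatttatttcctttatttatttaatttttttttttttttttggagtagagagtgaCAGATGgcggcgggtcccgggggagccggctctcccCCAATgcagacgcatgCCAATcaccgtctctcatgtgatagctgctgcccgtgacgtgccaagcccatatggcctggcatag
CAGATG or its reverse complement CATCTG was found in 14.4% of 32851 promoters in the table, and among the 9 promoters here it occurs once, with its first base 118 bases upstream of the Neurod2 start. TATATAA lies with its first base 29 bases upstream of the start in Neurog2, 30 in Eomes and 31 in Neurod1, and was found in 3.04% of all promoters. This element was searched for after the sequences had been read. CCAAT, found in 33.8% of all promoters, occurs at 2 places each in the windows of Eomes, Btg2 and Neurod2, and at 1 place each in those of Neurog1 and Neurod6. The capitals of different motifs do not overlap in these windows. Of the other motifs searched on both strands, CACNAG, the N-box of HES repressors, is in the promoters of Eomes, Neurod4 and Neurod6 and in 36.7% of all promoters. The palindromic E-box CAGCTG is in none of the 9 promoters and in 13% of all. The same holds for GTGGGAA, bound by the Notch effector RBPJ, at 5.42% of all promoters. It holds for the cell cycle element TTTGAA at 16%, and for the E2F site TTCCCGCC at 1.86%. A match is a string of letters and not evidence of binding.

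Levels are given in CPM, the deposited counts as a share of the library size after TMM scaling. Adjusted p means Benjamini-Hochberg adjustment of edgeR's quasi-likelihood test over all 19403 tested genes. The libraries held 18699434 to 25012356 counts in heterozygotes and 25270710 to 32865708 in wt. Dyrk1a itself had 149, 147 and 158 CPM in the heterozygotes and 177, 186 and 160 CPM in wt, a log2 fold change of -0.20 (SE 0.079) that did not pass the test (edgeR adjusted p = 0.59). Heterozygote replicate 2 and wt replicate 3 lay far from the other libraries on the first principal component and carried more 7SK, RNase P and RNase MRP RNA (4.002% and 4.46% of counts, against 2.56% to 3.01% elsewhere). Differences between this pair of libraries and among the 4 others are therefore given below.

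Of the 10 genes, 9 were higher in heterozygotes than in wt, where 51.2% of all tested genes were higher, and the median log2 fold change was 0.24 against 0.0048 over all tested genes. Log2 fold changes are heterozygote minus wt throughout. Rhbdl3, Btg2, Neurog2 and Eomes had the clearest differences, with 1.35, 1.28, 1.28 and 1.19 times the wt level, and in these 4 genes every heterozygote library was above every wt library. Of all tested genes 6.53% were separated in that direction. In the opposite direction 7.49% of all tested genes were separated, and 0 of the 10. None of the 10 passed at an adjusted p of 0.05: 0 were called by edgeR, which called 0.0103% of genes, and 0 by limma-voom. DESeq2 also called 0 of them, where it called 0.197% of the 15262 genes it gave an adjusted p. Neurog1 was given no adjusted p by DESeq2. At an unadjusted p under 0.05 by edgeR, 4 of the 10 were higher and none was lower, against 3.27% and 4.61% of all tested genes, or 7.88% in either direction. Without the pair of libraries named above, a setting chosen after the data were seen, 5 of the 10 were higher at that level, against 5.84% of genes. The same 4 genes were both separated and at an unadjusted p under 0.05. In bulk tissue more cells of a type and more RNA per cell cannot be told apart.

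**Figure D1:**
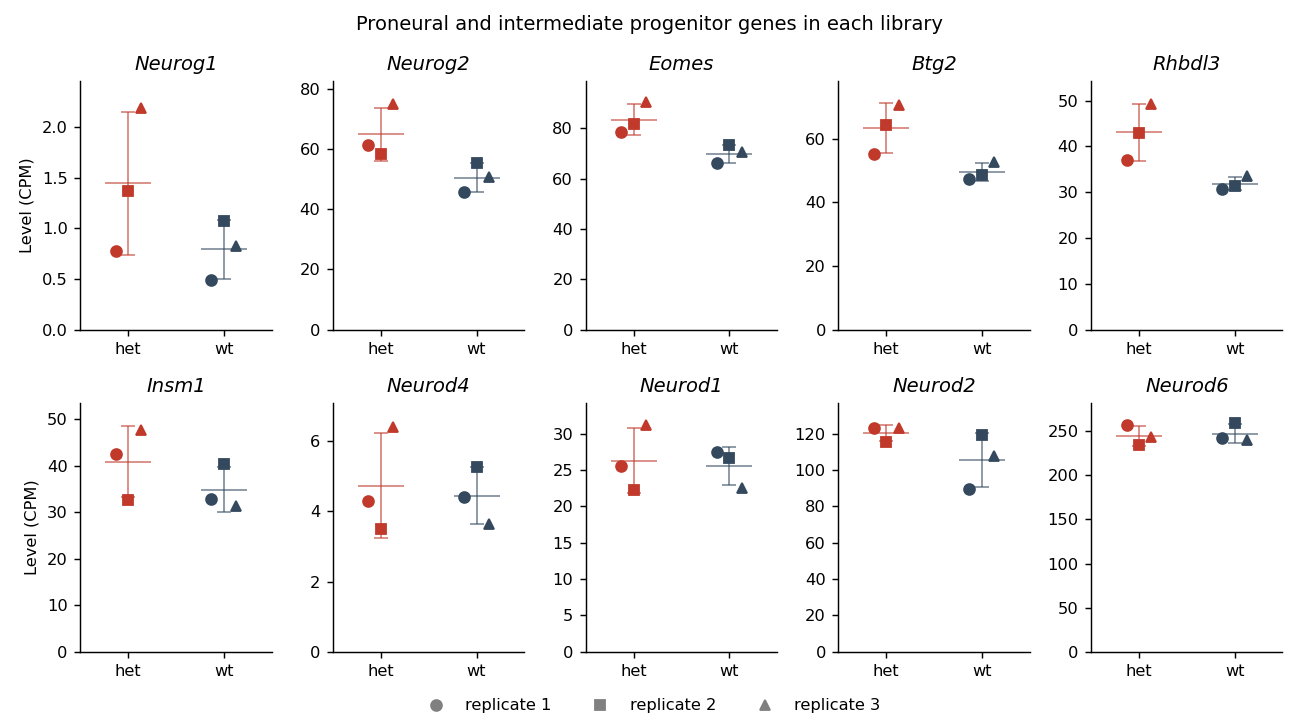
Level of each of the 10 genes in CPM (vertical axes, from 0) in 3 heterozygote (het) and 3 wt libraries; point shape gives the replicate number, and horizontal marks and bars give mean and SD. Neurog2, Eomes, Btg2 and Rhbdl3 are the 4 genes in which all heterozygotes lie above all wt libraries, while Neurod6 is near 245 CPM in heterozygotes and 247 CPM in wt.

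Compared per kilobase of exon (RPKM, CPM divided by the merged exon length of the gene), the level of these genes spanned a wide range in both genotypes. Neurod6 was the most abundant at 113.9 ± 5.33 RPKM in heterozygotes and 115 ± 4.97 RPKM in wt (SD, n = 3 each). Neurod2 followed at 38.3 ± 1.38 and 33.6 ± 4.78 RPKM in heterozygotes and wt, and then Neurog2 at 29.2 ± 3.98 and 22.7 ± 2.13 RPKM. Btg2 (23.1 and 18.04 RPKM) and Eomes (20.1 and 16.8 RPKM) came next in heterozygotes and wt, and their libraries overlapped in each genotype, so their order is not resolved. Insm1, Neurod1 and Rhbdl3 had means of 9.09 to 13.2 RPKM in heterozygotes and 6.73 to 11.3 RPKM in wt. In wt these 3 genes did not overlap their neighbours in the order, whereas in heterozygotes Insm1 overlapped Neurod1, and Neurod1 overlapped Rhbdl3. Neurod4 (1.42 and 1.33 RPKM) and Neurog1 (0.856 and 0.471 RPKM) were the scarcest in both genotypes.

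Of the 2 proneural initiators, Neurog2 was abundant and Neurog1 nearly absent. Neurog2 (ENSMUSG00000027967, GRCm38 chromosome 3, 127633135 to 127635631), the main proneural factor of the dorsal telencephalon, had 61.3, 58.5 and 75.1 CPM in the heterozygotes, against 45.8, 55.3 and 50.6 CPM in wt. All heterozygotes were above all wt libraries, with heterozygote replicate 3 the highest. This is a log2 fold change of 0.36 ± 0.112 (SE), with 0.11 to 0.62 as its 95% interval and an edgeR adjusted p of 0.517. A 2-sided exact permutation of the libraries gave p = 0.1, the smallest that 3 against 3 allow. Within the pair of libraries with most 7SK RNA the difference was 0.21 on the log2 CPM scale, and among the 4 others 0.43.

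Neurog1 (ENSMUSG00000048904, chromosome 13, 56250478 to 56252163), a relative that shares much of its function with Neurog2, had 16, 34 and 41 counts in the heterozygotes and 16, 27 and 23 counts in wt. That is 0.773, 1.37 and 2.19 CPM in heterozygotes and 0.488, 1.07 and 0.824 CPM in wt, so the genotypes overlapped. The fitted log2 fold change was 0.87, with -0.085 to 1.82 as its interval and an edgeR adjusted p of 0.678. Without heterozygote replicate 3 the value was 0.46, and without wt replicate 1 it was 0.6. It was 1.16 without heterozygote replicate 1, at an unadjusted edgeR p of 0.0193. Without wt replicate 2 it was 1.13, at an unadjusted edgeR p of 0.0453. At this depth the direction of Neurog1 is not resolved.

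Of the intermediate progenitor markers, Eomes separated the genotypes and Insm1 did not. Eomes (ENSMUSG00000032446, chromosome 9, 118478212 to 118486132), the T-box factor that defines these cells, had 78.3, 81.6 and 90.2 CPM in the heterozygotes, against 66.0, 73.1 and 70.4 CPM in wt. All heterozygotes lay above all wt libraries. The log2 fold change was 0.26 ± 0.0803 (SE), with 0.073 to 0.44 as its 95% interval (edgeR adjusted p = 0.522, 2-sided exact permutation p = 0.1). The pair with most 7SK RNA differed by 0.21 on the log2 CPM scale and the 4 others by 0.27. Gm33460 on the opposite strand shares 118 exonic bases with Eomes, and its reads may not be told apart from those of Eomes. Insm1 (ENSMUSG00000068154, chromosome 2, 146221921 to 146225020), a zinc-finger repressor that promotes the formation of intermediate progenitors, had 42.5, 32.6 and 47.7 CPM in the heterozygotes, against 32.9, 40.3 and 31.4 CPM in wt. Heterozygote replicate 2 lay within the wt range, and the log2 fold change of 0.23 had an interval of -0.11 to 0.57 and an edgeR adjusted p of 0.754. It was 0.104 without heterozygote replicate 3, and 0.371 without heterozygote replicate 2, at an unadjusted edgeR p of 0.0162. For Insm1 the pair differed by 0.051 and the 4 others by 0.30.

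Btg2 and Rhbdl3 showed the lowest p values of the 10 genes. Btg2 (ENSMUSG00000020423, chromosome 1, 134075170 to 134079120), an antiproliferative gene switched on in progenitors before a neuron-producing division, had 55.2, 64.2 and 70.6 CPM in the heterozygotes, against 47.3, 48.5 and 52.7 CPM in wt. The genotypes did not overlap, and the log2 fold change was 0.36 ± 0.0997 (SE), with 0.13 to 0.58 as its 95% interval (edgeR adjusted p = 0.495, 2-sided exact permutation p = 0.1). Rhbdl3 (ENSMUSG00000017692, chromosome 11, 80300912 to 80355955), a rhomboid-like membrane protein used as a marker of cortical intermediate progenitors, had 37.0, 42.8 and 49.3 CPM in the heterozygotes, against 30.8, 31.3 and 33.5 CPM in wt. The wt libraries were close together and the heterozygotes spread, with SDs of 6.15 CPM in heterozygotes and 1.44 CPM in wt. The log2 fold change of 0.43 ± 0.109 (SE), with 0.19 to 0.68 as its 95% interval (edgeR adjusted p = 0.483, 2-sided exact permutation p = 0.1), ranked 126 by p among 19403 tested genes. The pair with most 7SK RNA differed by 0.28 for Btg2 and 0.35 for Rhbdl3, and the 4 other libraries by 0.38 and 0.45.

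**Figure D2:**
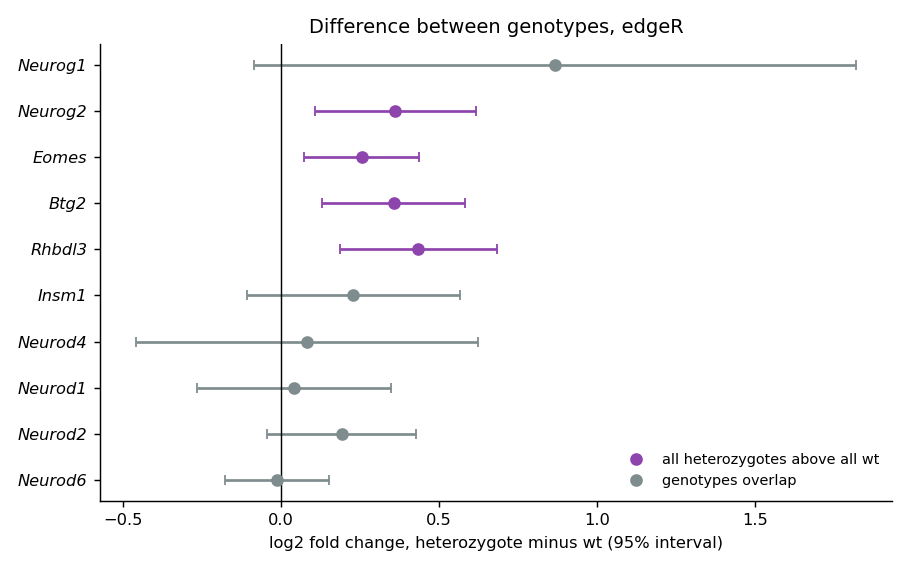
Log2 fold change of each gene, heterozygote minus wt (horizontal axis), from edgeR's quasi-likelihood fit with 95% intervals; colour marks the genes whose 3 heterozygotes all lie above all wt libraries. The intervals of Neurog2, Eomes, Btg2 and Rhbdl3 lie above 0, and those of the other 6 genes include 0.

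The NEUROD factors, which act later, had smaller differences, and in none of the 4 were the genotypes separated. Neurod4 (ENSMUSG00000048015, chromosome 10), an early member of the group, was scarce, at 3.5 to 6.4 CPM in heterozygotes and 3.65 to 5.28 CPM in wt, with a log2 fold change of 0.081 (SE 0.239). Neurod1 (ENSMUSG00000034701, chromosome 2, 79452521 to 79456751), which is expressed as intermediate progenitors turn into neurons, had 25.5, 22.3 and 31.2 CPM in the heterozygotes, against 27.4, 26.6 and 22.6 CPM in wt. The log2 fold change of 0.04 had an interval of -0.27 to 0.35 and an edgeR adjusted p of 0.974. Cerkl, on the same strand, shares 201 exonic bases with Neurod1 and had 261 counts over all libraries, and Gm26755, on the opposite strand, shares 154 and had 40 counts, beside 528 to 585 counts of Neurod1 per heterozygote library and 631 to 899 per wt library.

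Neurod2 (ENSMUSG00000038255, chromosome 11, 98325415 to 98329648), a factor of young and maturing glutamatergic neurons, had 122.9, 115 and 123 CPM in the heterozygotes, against 89.6, 119 and 107 CPM in wt. The log2 fold change of 0.19 (interval -0.045 to 0.43, edgeR adjusted p = 0.71) depended on wt replicate 1, the lowest library, without which it was 0.086; without wt replicate 2 it was 0.287, at an unadjusted edgeR p of 0.0251. Neurod6 (ENSMUSG00000037984, chromosome 6, 55677822 to 55681263), expressed in postmitotic cortical neurons, was the only one of the 10 with a negative value. It had 257, 234 and 244 CPM in the heterozygotes, against 242, 260 and 240 CPM in wt. The log2 fold change was -0.014 with an interval of -0.18 to 0.15 and an edgeR adjusted p of 0.98, so a difference as large as that fitted for Eomes lies outside this interval.

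**Figure D3:**
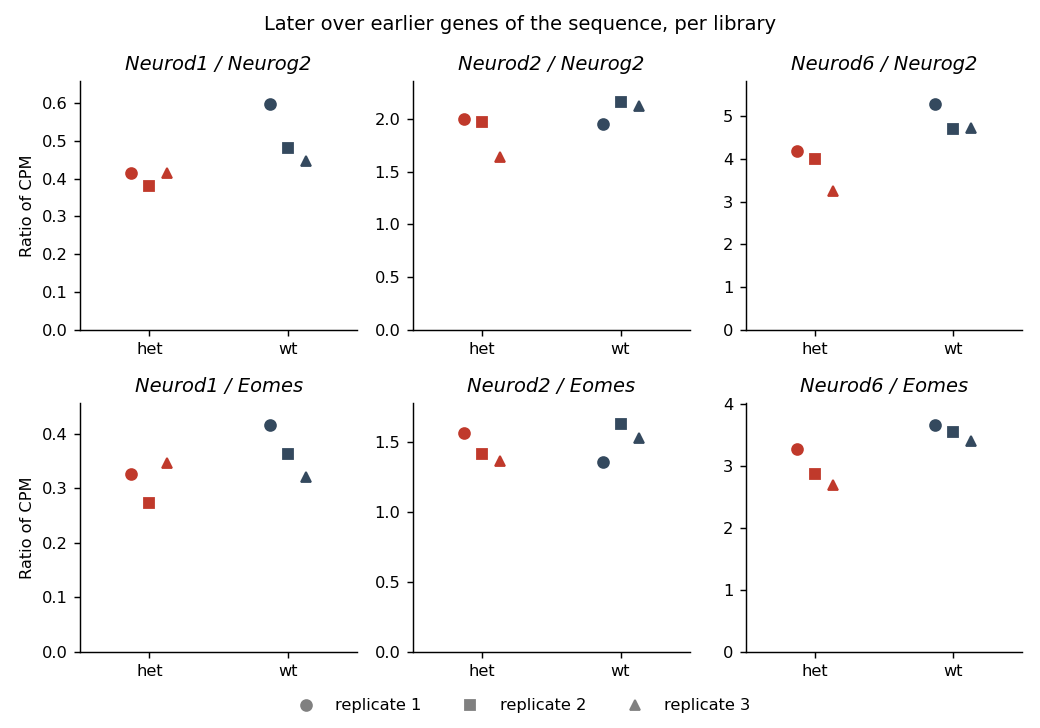
Ratio of CPM of a later gene to an earlier one (vertical axes, from 0) in each heterozygote (het) and wt library; point shape gives the replicate number. Neurod1 over Neurog2, Neurod6 over Neurog2 and Neurod6 over Eomes are lower in all heterozygotes than in all wt libraries, and the other 3 ratios overlap.

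Ratios of later to earlier genes within each library do not depend on library size. Neurod6 was at 3.28, 2.87 and 2.7 times Eomes in the heterozygotes, against 3.67, 3.55 and 3.41 times in wt, without overlap. Against Neurog2 it was at 4.19, 4.003 and 3.25 times in the heterozygotes and 5.3, 4.7 and 4.74 times in wt, again without overlap. Neurod1 over Neurog2 was 0.416, 0.381 and 0.416 in the heterozygotes, against 0.599, 0.482 and 0.447 in wt. Neurod1 over Eomes, Neurod2 over Eomes and Neurod2 over Neurog2 overlapped between genotypes, and Neurod2 over Eomes differed by -0.054 in mean log2 ratio. Because Eomes and Neurog2 were themselves higher in heterozygotes, low ratios were common: 36.1% of all tested genes had a ratio to Eomes that was lower in every heterozygote than in every wt library, and 39.5% had such a ratio to Neurog2. The separated ratios, 1 of 3 to Eomes and 2 of 3 to Neurog2, are read against that background and are a description with no test.

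The 10 genes followed the library as well as the genotype. Heterozygote replicate 3 was the highest library in 9 of the 10 genes, all but Neurod6, and wt replicate 1 the lowest in 6 of the 10. These were the libraries with the fewest and the most counts, 18699434 and 32865708. With all libraries thinned to the smaller total, an alternative chosen after the data were seen, 4 genes were again at an unadjusted p under 0.05 and the median log2 fold change was 0.23. Over all genes, 1425 of 18801 were at that level in either direction. Without heterozygote replicate 3 the median was 0.18, 7 of 10 genes were higher and 3 were at an unadjusted p under 0.05 by edgeR. Over all genes it was 845 of 19860 in either direction. Without wt replicate 1 the median was 0.2, 9 were higher and again 3 were at that level, beside 812 of 19779 over all genes. In both of these fits Eomes was the gene that passed 0.05 no longer, at an unadjusted edgeR p of 0.0514 and 0.0533.

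Genes of the cell cycle and of radial glia were read in the same libraries. For these and the lists that follow, 51.2% of all tested genes were higher. At an unadjusted p under 0.05, 3.27% of all tested genes were higher and 4.61% lower. Of 17 genes of G2 and M phase, all 17 were higher at a median of 0.35 on the log2 scale, and 16 were at an unadjusted p under 0.05. Their summed level was 1390 to 1732 CPM in heterozygotes and 1097 to 1212 CPM in wt, with heterozygote replicate 3 at the top and wt replicate 1 at the bottom. Of these, Tpx2, Ttk, Cenpf and Mki67 had the lowest p, with log2 fold changes of 0.45, 0.53, 0.42 and 0.51. Of 17 genes of apical progenitors (radial glia), 13 were higher, at a median over the list of 0.24, and 6 stood at an unadjusted p under 0.05, all 6 of them higher. The remaining 4 of the 17 were lower, none at that level: Slc1a3 (-0.20), Hopx (-0.17), Ptprz1 (-0.14) and Fabp7 (-0.071), named outside the rule. For Slc1a3 all heterozygotes were below all wt libraries. Summed levels of the list overlapped, at 2407 to 2559 CPM in heterozygotes and 2314 to 2435 CPM in wt. With the pair of libraries left out, 8 of the 17 were higher and 2 lower at an unadjusted p under 0.05. Over all genes in that fit these were 1127 and 1365 of 19285. Pax6, which activates Neurog2 in radial glia, had 72.1 ± 4.92 CPM in heterozygotes and 59.0 ± 1.36 CPM in wt (SD, n = 3 each), a log2 fold change of 0.29. Ttyh1, Gli3 and Sox9 had log2 fold changes of 0.25, 0.32 and 0.46. The part of the cell cycle and radial glia genes in the values of the 10 genes was not tested.

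**Figure D4:**
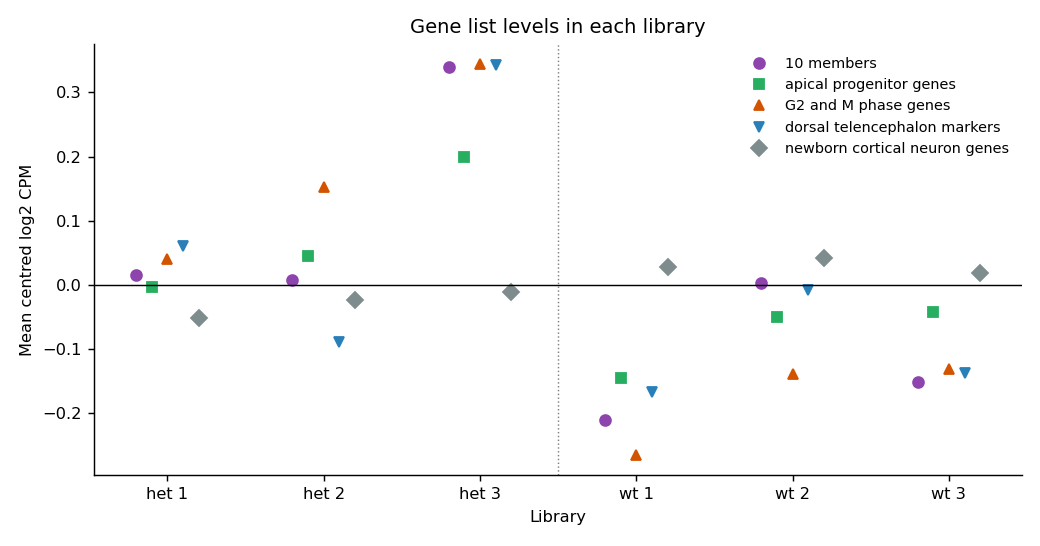
Mean centred log2 CPM of 5 gene lists (vertical axis) in each library (horizontal axis), heterozygotes left of the dotted line. The 10 genes, the apical progenitor genes, the G2 and M phase genes and the dorsal markers are all highest in heterozygote replicate 3. Newborn cortical neuron genes lie at -0.0516 to -0.0109 in heterozygotes and 0.0187 to 0.0409 in wt, without overlap.

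The HES and HEY repressors, which block proneural genes, had a median of 0.31, and 4 of the 5 were higher. Hes1 had 12.6 ± 1.05 CPM in heterozygotes and 9.03 ± 0.636 CPM in wt (SD, n = 3 each), and Hes5 had 25.4 ± 2.2 CPM in heterozygotes and 20.6 ± 1.75 CPM in wt, and both were at an unadjusted p under 0.05. The E-protein partners Tcf12, Tcf3 and Tcf4, with which proneural factors pair, were higher by 0.18, 0.16 and 0.045 on the log2 scale, none at an unadjusted p under 0.05. The Id proteins, which sequester E proteins, were split evenly, with 2 of 4 higher and a median of -0.042. Id2 and Id4 had the lowest p among them, with log2 fold changes of -0.24 and 0.21, and neither was at an unadjusted p under 0.05.

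Other basic helix-loop-helix factors of neural progenitors and neurons were mostly scarce. Of 13 listed, 9 were tested and 4 had too few counts, with 13 counts over all libraries for Neurog3 and 5 or fewer each for Atoh1, Atoh7 and Ptf1a. Of the 9 tested, 7 were higher, and the median was 0.35. Nhlh1 and Nhlh2, expressed in newborn neurons, had log2 fold changes of 0.52 (SE 0.21) and 0.35 (SE 0.127), and Olig1, of ventral and oligodendrocyte progenitors, had -0.41 (SE 0.151). These 3 were at an unadjusted p under 0.05.

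The list of intermediate progenitor genes beyond the 10 showed a smaller median. It was 0.096 over 19 genes, with 15 of them higher. This list also holds genes far more abundant than Eomes. Among them were Sox11 (2054 CPM in heterozygotes, 1921 CPM in wt) and Sox4 (781 and 717 CPM), named outside the rule. The part of the list's make-up in its median was not tested. The 4 at an unadjusted p under 0.05 were all higher: the Notch ligand Dll1 (0.33, SE 0.123), the fringe glycosyltransferase Mfng (0.27), Nhlh1 and the growth arrest gene Gadd45g (0.49, SE 0.206). In each of these 4 the genotypes overlapped. Among relatives of the 10 genes by sequence, 8 of 9 were tested and all 8 were higher, at a median of 0.2. Btg3 (0.66, SE 0.221) and Tob2 (0.36, SE 0.13), both of the antiproliferative family of Btg2, were at an unadjusted p under 0.05. Btg3 was low, at 1.9 CPM in heterozygotes and 1.21 CPM in wt.

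Genes of newborn cortical neurons, which act later than most of the 10, showed no common direction gene by gene. The median over 13 genes was 0.0019, with 7 of them higher, but their summed level was 5118 to 5352 CPM in heterozygotes and 5567 to 5850 CPM in wt, without overlap. The most abundant genes weigh most in this sum. Tubb3 had 1657 CPM in heterozygotes and 1845 CPM in wt, Dcx 1527 and 1628 CPM, and Mapt 728 and 864 CPM. Tubb3 and Dcx, named outside the rule, each overlapped between genotypes. Among genes of the list at an unadjusted p under 0.05, the microtubule genes Mapt (-0.25) and Stmn2 (-0.20) were lower, and Sox5, a factor of deep-layer neurons, was higher (0.19). Tbr1, a T-box relative of Eomes in postmitotic neurons, had 72.8 CPM in heterozygotes and 71.5 CPM in wt, a log2 fold change of 0.025; it is named outside the rule. Genes of the ganglionic eminences, where neurons are made without Neurog2 or Eomes, had a median of 0.039, with 10 of 14 tested genes higher, and 0 of them at an unadjusted p under 0.05 by edgeR. Gsx2 (0.46, SE 0.25) and Dlx1 (0.17) had the lowest p there.

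**Figure D5:**
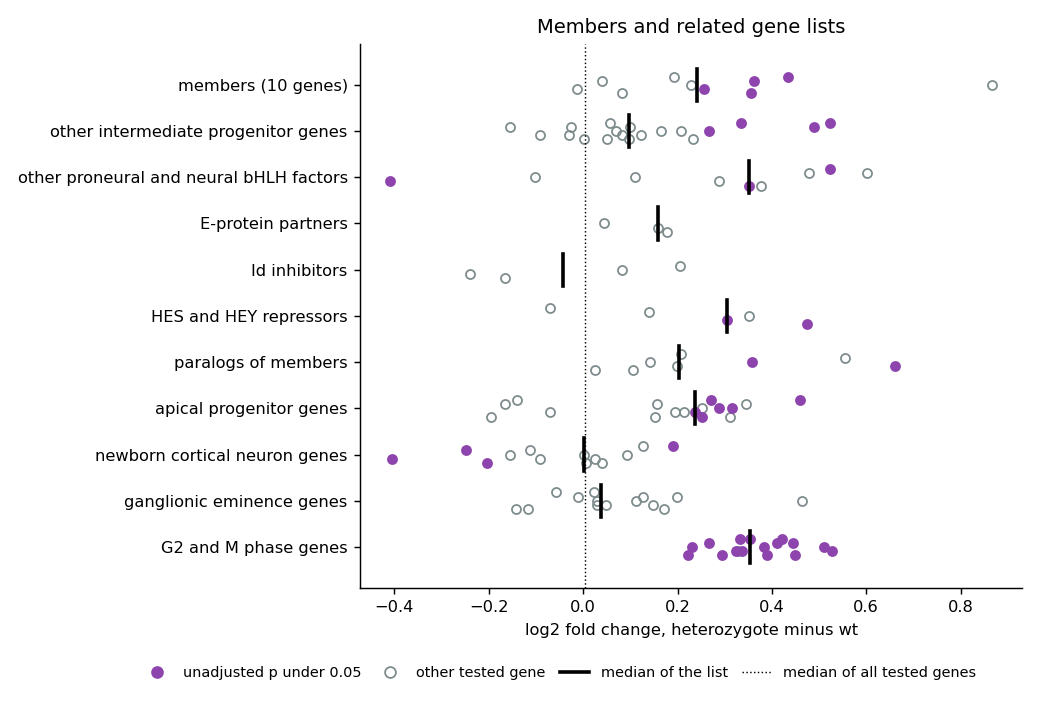
Log2 fold change, heterozygote minus wt (horizontal axis), of every tested gene in the 10 and in 10 related lists; filled points are at an unadjusted p under 0.05, thick bars are list medians and the dotted line is the median of all tested genes. The 10 genes have a median of 0.24, between newborn cortical neuron genes at 0.0019 and G2 and M phase genes at 0.35.

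Markers of regions and other cells were read in the same libraries. Of 4 dorsal telencephalon markers all were higher, with a summed level of 153 to 204.5 CPM in heterozygotes and 137.5 to 164.4 CPM in wt, and Lhx2 (0.27) was at an unadjusted p under 0.05. Of 7 thalamus and midbrain markers 5 were tested and higher, at 168.4 to 241.7 CPM in heterozygotes and 153.6 to 181.9 CPM in wt, with Lef1 (log2 fold change 0.25) and Tcf7l2 (0.33) lowest in p; none of the 7 was at 0 in all libraries. Neurog1 and Neurog2 are also expressed in thalamic progenitors, and both lists were highest in heterozygote replicate 3. Of 5 Cajal-Retzius markers 3 were lower, of 6 meningeal markers 4, of 6 microglial markers 5 and of 6 endothelial markers 5. Summed levels of the meningeal markers were 383.4 to 425 CPM in heterozygotes and 434.6 to 510.3 CPM in wt, without overlap. The erythroid markers had 555.5 to 722.9 CPM in heterozygotes and 711.3 to 889.3 CPM in wt, and 5 of 6 were lower. The exception, Hbb-y, had 21.5, 22.8 and 82.5 CPM in the heterozygotes, against 4.49, 6.54 and 9.53 CPM in wt, without overlap. Its log2 fold change was 2.62 (SE 0.533). At an unadjusted p under 0.05 by edgeR, 1 erythroid marker, Hbb-y, was higher and 3 were lower. Those lower were Hbb-bt (-0.55), Alas2 (-0.53) and Hbb-bs (-0.34), each with all heterozygotes below all wt libraries. In the edgeR fit of all 6 libraries 0 genes of these lists, markers included, passed the adjusted threshold. DESeq2 called 4 of the 17 genes of G2 and M phase, and edgeR without the pair of libraries called 1 erythroid marker. Lhx2, Nhlh1 and Tbr1 are each in more than 1 list. The part of these markers in the values of the 10 genes was not tested.

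The genes whose profile over the 6 libraries lay closest to those of Eomes and Neurog2 were sought among 10926 genes with a mean of at least 10 CPM, by the root mean square difference of mean-centred log2 CPM. For Eomes they were Ercc5 (0.0188), Slbp (0.0243), Brca1 (0.0263), Mcm4 (0.027) and Rfc3 (0.0362), where the median candidate was at 0.177. For Neurog2 they were Aspm (0.0264), Igf2bp1 (0.0451), Ccnb1 (0.0459), Gas1 (0.047) and Atad2 (0.0481), with a median candidate at 0.243. No other gene of the 10 was a candidate, and 6 libraries leave such rankings loosely determined.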

How the data were processed

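RNA of 6 forebrain libraries was analysed from a deposited table of raw counts per Ensembl gene, 1 column per library. Per the submitters' processing notes, the authors used bcl2fastq 2.17.1.14, HISAT2, SAMtools 1.9 and HTSeq 0.9.1 on GRCm38/mm10. Neither the annotation nor whether counting used strand is given in these sources, which leaves overlapping genes uncertain. The labels name polyA RNA as well as a stranded kit for depleted total RNA. Symbols, positions and merged exon lengths came from GENCODE M21 (32888 of 33084 identifiers matched).

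In R 4.3.3, genes were filtered by edgeR's filterByExpr (19403 kept), scaled by TMM and fitted by edgeR 4.0.16 quasi-likelihood with genotype as the only term, and p was adjusted by Benjamini-Hochberg over all genes tested. SEs and 95% intervals come from the F statistic. The fit was tested on simulated data, where it called 38% of 50 genes changed 1.5-fold and 62% of 50 genes changed 2-fold. Changes under 1.5-fold were not simulated. Single-library logs add 0.5 CPM. The genes described, the lists, the motifs and the alternatives were chosen with earlier results of these data known. All 10 genes are named; of each list, up to 4 genes of lowest p at an unadjusted p under 0.05, or otherwise the 2 of lowest p. DESeq2 1.42.0 and limma 3.58.1 served as alternatives. Single results for some listed genes are not reported here.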

Additional observations from a re-analysis of the deposited data

How the results depend on the processing

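Over the alternatives run (DESeq2 size factors, DESeq2, limma-voom, no low-count filter, robust fitting, replicate block, a term for the 2 libraries highest in 7SK RNA, other library sizes, each library left out, and, added after the data were seen, that pair left out and thinned counts), 0 of the 10 genes passed the adjusted threshold. The median log2 fold change of the 10 ran from 0.185 to 0.313 with a library left out, and 3 to 6 genes were at an unadjusted p under 0.05 and higher. With a library left out, 812 to 2072 of 19756 to 19860 tested genes were at that level in either direction. Eomes, Neurog2, Btg2, Rhbdl3, Insm1, Neurod2 and Neurog1 kept a positive sign in every one of the alternatives. The sign of the genes near 0 did not hold: with a library left out Neurod1 ran from -0.0995 to 0.149, Neurod4 from -0.193 to 0.264 and Neurod6 from -0.0498 to 0.0195, and Neurod6 was at 0.00377 in thinned counts. Over all genes edgeR called 2, and the count was 30 by DESeq2, 4 without the filter, 6 with a term for the pair and 6 without the pair. It was 0 to 5 with a library left out, and where 0 passed edgeR's test 812 to 1584 genes were at an unadjusted p under 0.05. The cause was not tested. Same-numbered libraries had correlations of deviations from genotype means of 0.283, -0.448 and -0.243 for replicates 1, 2 and 3. Heterozygote replicate 2 and wt replicate 3, the pair that lay far from the others, had 0.584. Because that pair weighs heavily in these values, the check cannot tell whether replicate numbers pair the libraries. With the replicate block edgeR called 0 genes (1110 at an unadjusted p under 0.05), with a median of 0.238 for the 10 and 5 of them at an unadjusted p under 0.05.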
